A study of Mus musculus with 13 samples.

Results

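Chemokines are small secreted proteins that steer migrating leukocytes, and their receptors are the G protein-coupled receptors through which cells read them. All genes of both kinds in the count table of a mouse liver endothelial cell study were followed here, taken by name (Ccl, Cxcl, Xcl and Cx3cl ligands, Ccr, Cxcr, Xcr and Cx3cr receptors and the Ackr genes). The set of names was chosen with earlier results of these data known, and every gene with such a name was then taken whatever its value. These names gave 61 of 24421 gene symbols: 39 ligands, 18 signalling receptors and 4 atypical receptors. Ccr1l1 and Ccrn4l, whose symbols carry further letters, are not among them. Liver endothelial cells (LECs) of wild-type mice were sequenced in 7 libraries from mice raised conventionally, which carry a microbiota (CONV-R, libraries 1 to 7), and 6 from germ-free mice, which are kept without microbes (GF, libraries 8 to 13). All 13 libraries share the genotype and the cell type. The labels give neither the age, sex or strain of the mice nor the isolation of the cells, and do not say whether a library is 1 animal, so each test measures the spread between these libraries. The comparison asked how these genes differ in LECs when the microbiota is absent.

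Chemokine ligands are commonly grouped by the spacing of their first cysteines into CC, CXC, XC and CX3C families, and a receptor often reads several ligands. Inflammatory ligands are induced through NF-kB or interferon signalling, while homeostatic ones are made steadily and place lymphocytes and stem cells. Atypical receptors bind chemokines without G protein signalling and carry or remove them. In the liver, sinusoidal endothelium lies next to Kupffer cells and passing leukocytes, which carry most of the signalling receptors, and it presents chemokines on its surface sugars.

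Promoter sequence is shown first for 5 inflammatory CXC ligands on chromosome 5, because they form neighbouring groups whose levels are compared below. Bases upstream of the RefSeq start were read from RefSeq on GRCm38.p6, 5′ to 3′ on the gene's own strand. Of the 61 members, 45 have such a window. Capitals mark matches to an NF-kB consensus, searched as GGGRNYYYCC (R for A or G, Y for C or T, N for any base), in Cxcl1, Cxcl2 and Cxcl3. In Cxcl9 they mark the interferon-response letters GAAANNGAA, and in Cxcl10 both, where 2 overlapping NF-kB matches run together. Stretches that differ from these letters, such as gggaaattcc in Cxcl10, stay in small letters and were not counted.
Cxcl1 (chr5:90891095-90891244, plus strand): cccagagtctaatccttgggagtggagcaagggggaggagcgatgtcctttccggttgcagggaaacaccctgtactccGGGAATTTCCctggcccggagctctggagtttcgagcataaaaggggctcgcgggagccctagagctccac
Cxcl2 (chr5:90903749-90903898, plus strand): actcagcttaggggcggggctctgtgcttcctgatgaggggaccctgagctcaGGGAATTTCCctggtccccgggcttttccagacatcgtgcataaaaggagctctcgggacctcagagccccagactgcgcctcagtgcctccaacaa
Cxcl3 (chr5:90785951-90786100, plus strand): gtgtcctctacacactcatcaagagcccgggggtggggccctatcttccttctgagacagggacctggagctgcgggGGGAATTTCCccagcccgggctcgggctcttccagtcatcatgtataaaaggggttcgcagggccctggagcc
Cxcl9 (chr5:92328080-92328329, minus strand): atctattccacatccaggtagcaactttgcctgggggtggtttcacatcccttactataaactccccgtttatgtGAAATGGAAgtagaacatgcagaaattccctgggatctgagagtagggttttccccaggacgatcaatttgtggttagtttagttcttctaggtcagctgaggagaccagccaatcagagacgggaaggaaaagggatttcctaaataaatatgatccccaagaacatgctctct
Cxcl10 (chr5:92348890-92349139, minus strand): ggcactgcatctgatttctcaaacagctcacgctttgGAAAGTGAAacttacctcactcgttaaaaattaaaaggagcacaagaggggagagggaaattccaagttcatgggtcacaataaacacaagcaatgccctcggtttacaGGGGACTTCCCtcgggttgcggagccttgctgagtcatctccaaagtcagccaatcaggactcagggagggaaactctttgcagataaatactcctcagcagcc

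Cxcl1, Cxcl2 and Cxcl3 hold the same 10 letters, GGGAATTTCC, which begin 71, 97 and 73 bases before the start. Searched on both strands of the 300-base window from 250 bases before to 50 after the start, the NF-kB consensus matched in 11 of 45 member symbols (24.4%), counting a symbol with a match in any of its windows, and in 6.55% of all 27025 symbols counted alike. The letters GAAANNGAA matched in 8 of 45 member symbols (17.8%) and in 9.76% of all symbols. Ccr3 and Ccr6, receptors that fell, also hold an NF-kB match, as does Ackr2, which rose. These matches describe letters in a window and say nothing of binding in these cells.

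The GF libraries held 23407168 to 35478115 counts and the CONV-R libraries 7590320 to 32869515, and 13915 genes were tested. Levels are in CPM, counts scaled to the size of the library. Summed sinusoidal endothelial markers stood at 42730 to 45869 CPM in the GF libraries and at 25286 to 43068 in the CONV-R ones, so the cell type of the labels is borne by its markers, with none of the 15 at 0. Of these 15, 8 were higher in GF and 0 lower, and of 9 cholangiocyte markers, which summed to 139 to 368 CPM in GF libraries against 51.5 to 262 in CONV-R ones, 4 were higher and 1 lower. Markers of other liver cells were present too: neutrophil and monocyte markers summed to 329 to 445 CPM in GF libraries against 443 to 2776 in CONV-R ones, with 11 of 15 tested lower in GF, and B and plasma cell markers to 30.9 to 55.0 against 80.8 to 2100.03, with 9 of 10 lower. For dendritic cells the sums were 761 to 926 against 713 to 1812 (5 of 12 lower), and for hepatocytes 852 to 1337 against 1480.3 to 8818 (13 of 14 lower). T and NK markers, at 97.9 to 301 against 95.5 to 527, and Kupffer cell markers, at 3163 to 4953 against 3423 to 9332, had 0 of 16 and 0 of 14 past the threshold. None of these lists had a measured marker at 0 in every library. Immediate early genes, which respond within minutes to stress or handling, summed to 534 to 699.8 against 690.2 to 2004 (11 of 17 lower). CONV-R 1 had the highest B, T and dendritic cell and hepatocyte sums and the lowest sinusoidal sum, CONV-R 7 had the highest neutrophil and immediate early sums, with CONV-R 6 next in both, and values are therefore also given without CONV-R 1, 6 and 7. A number in the library names, of unstated meaning, is 6 in the GF libraries, 9 in CONV-R 5 to 7 and 10 in CONV-R 1 to 4. This code number differs between the groups throughout and cannot be told apart from the group. In such bulk libraries, fewer cells of a type and less RNA per cell cannot be told apart.

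Of the 61 members, 41 passed the filter on low counts and 20 of them passed the test, an edgeR quasi-likelihood test adjusted over all genes at a threshold of 0.05. Of all genes tested, 24.1% passed. Lower in GF were 17 of 41 members (41.5%), against 12.7% of all genes, and higher were 3 (7.32%), against 11.4%. A fall of at least 2-fold was seen in 16 members (5.81% of all genes) and a rise of that size in 1 (1.68%). The median log2 fold change, GF over CONV-R, was -0.90 over the 41 members and -0.01 over all genes. The 3 members that rose are all atypical receptors, the 17 that fell comprise 10 signalling receptors, 6 ligands and Ackr1, and 0 ligands rose. Of the 23 ligands tested, 26.1% were called, near the 24.1% of all genes. All 6 called ligands were lower, as were 12.7% of all genes. With the neutrophil and monocyte marker sum as a covariate 0 of the 41 members passed (15 at an unadjusted p under 0.05) and 4.13% of all genes did. With the hepatocyte sum these were 0 (3 unadjusted) and 3.68%.

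**Figure D1:**
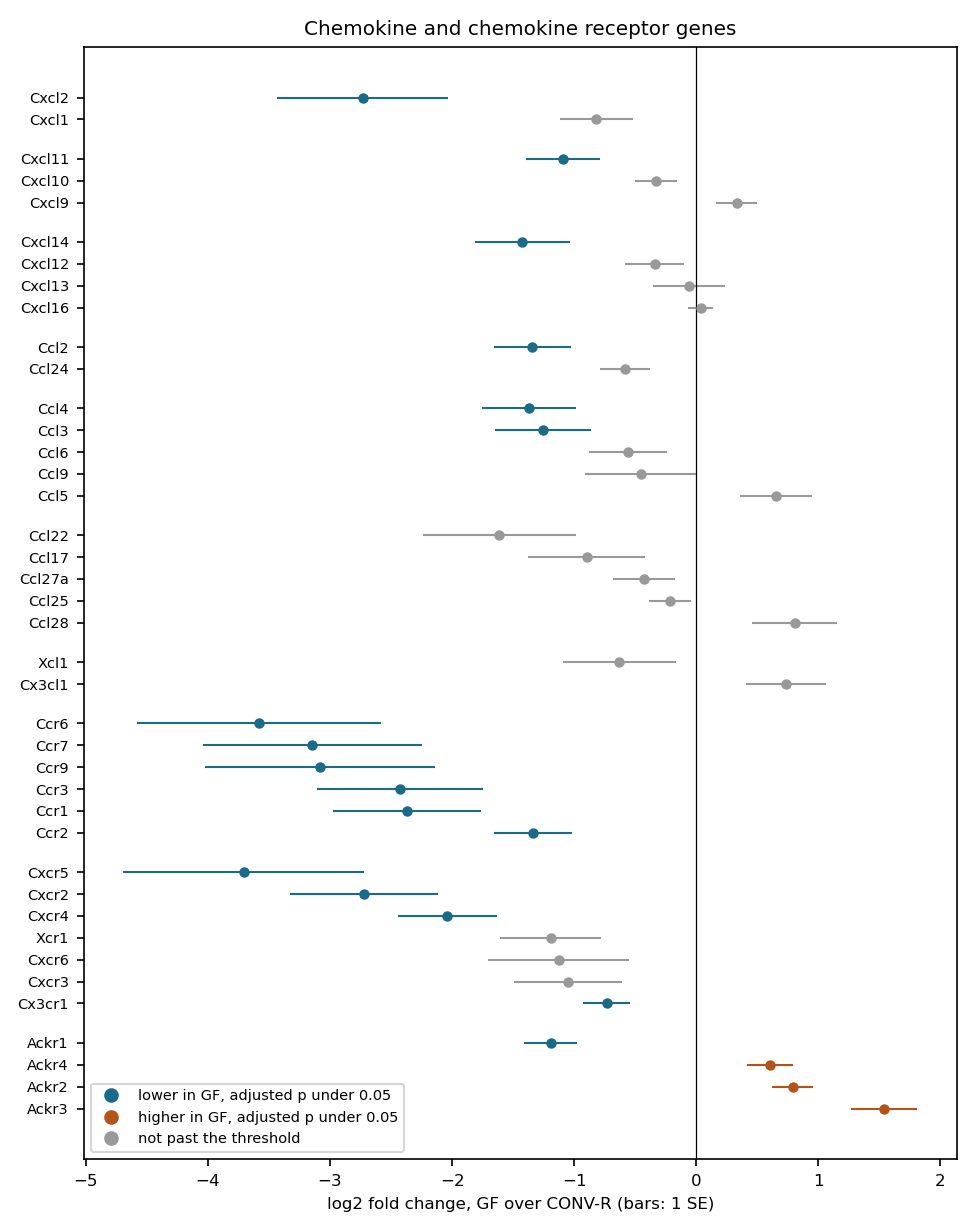
Log2 fold change (GF over CONV-R, horizontal axis, bars 1 SE) of 40 members tested, in blocks by role from ligands at the top to atypical receptors at the bottom. All coloured ligands and signalling receptors lie left of zero, and 3 of the 4 atypical receptors lie right of it.

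Positions given from here on are gene spans on GRCm38. Cxcl2, a ligand that draws neutrophils through Cxcr2 (chr5:90903871-90905938), fell most among the ligands tested. It ran from 11.7 to 127 CPM (median 13.1) in CONV-R and from 3.87 to 9.49 CPM (median 6.29) in GF. The groups did not overlap, but CONV-R 6 and 7, at 127 and 105 CPM, stood far above the other 5 CONV-R libraries, none of which passed 16.3. The log2 fold change was -2.73 ± 0.70 SE, adjusted p = 0.0145, and it was -1.10 (adjusted p = 0.0111) without CONV-R 1, 6 and 7. Cxcl1, its neighbour with the same receptor (chr5:90891241-90893115), ran at 1.06 to 3.66 CPM (median 1.76) in CONV-R and 0.708 to 1.39 CPM (median 1.18) in GF and did not pass the test (-0.82 ± 0.30 SE, adjusted p = 0.0598). The other members of this group are Cxcl3, Cxcl5 and Cxcl15, which were too low to test.

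Of the 3 ligands of Cxcr3, the receptor of activated T and NK cells, only Cxcl11 passed the test. GENCODE M21 lists Cxcl11 as a polymorphic pseudogene and not as protein-coding. The labels do not give the strain, so whether these mice make the protein is not known here. Cxcl9 held 83.6 to 153 CPM (median 119.1) in CONV-R and 125 to 188 CPM (median 143) in GF, and the groups overlapped. Its log2 fold change was 0.33 ± 0.17 SE, adjusted p = 0.155. Cxcl10, also an interferon-induced ligand, held 31.4 to 61.9 CPM (median 43.4) in CONV-R and 27.9 to 48.7 CPM (median 33.5) in GF, again overlapping, with a log2 fold change of -0.33 ± 0.17 SE, adjusted p = 0.170.
Cxcl11, the least abundant of them, ran at only 0.329 to 1.06 CPM (median 0.653) in CONV-R and 0.224 to 0.491 CPM (median 0.283) in GF, which is 5 to 26 counts a library in CONV-R and 5 to 17 in GF. It fell by the test (-1.09 ± 0.30 SE, adjusted p = 0.0203), and CONV-R 4 lay inside the GF range. Without CONV-R 1, 6 and 7 its log2 fold change was -0.97 and it no longer passed (adjusted p = 0.0660). Cxcl10 shares 133 exonic bases with Art3, and Cxcl11 shares 1582 with Gm2673, on the opposite strand. Because the strand setting of the counting is not given, their counts are uncertain.

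Among the other CXC ligands, Cxcl16, the transmembrane ligand of Cxcr6, was the most abundant member per kilobase of exons, at a mean of 89.9 CPM per kilobase in CONV-R and 92.2 in GF. Its libraries spanned 183 to 276 CPM (median 269) in CONV-R and 237 to 267 CPM (median 247) in GF. The log2 fold change of 0.036 ± 0.10 SE, adjusted p = 0.825 was smaller than its error, and its sign changed with the scaling (library totals gave -0.058). It overlaps Zmynd15 by 552 bases on the opposite strand, so some of its reads are uncertain.
Cxcl12, the Cxcr4 ligand that retains stem cells and lymphocytes, spanned 22.7 to 62.3 CPM (median 48.7) in CONV-R and 24.7 to 54.4 CPM (median 33.8) in GF, with a log2 fold change of -0.34 ± 0.24 SE, adjusted p = 0.308. Cxcl13, which places B cells through Cxcr5, spanned 6.72 to 29.4 CPM (median 11.5) in CONV-R and 9.19 to 20.1 CPM (median 13.8) in GF and its value of -0.059 ± 0.29 SE, adjusted p = 0.906 took either sign over the alternative settings. Cxcl14 (chr13:56288643-56296551), whose receptor is debated, was scarce at 0.926 to 5.09 CPM (median 1.46) in CONV-R and 0.549 to 1.08 CPM (median 0.769) in GF. It fell (-1.423 ± 0.39 SE, adjusted p = 0.0193), with CONV-R 5 and 6, at 3.31 and 5.09 CPM, above all other libraries and only CONV-R 4 within the GF range. Without CONV-R 1, 6 and 7 it was -1.17 (adjusted p = 0.0334), and within the CONV-R libraries of code number 10 alone it was -0.78 (adjusted p = 0.0511).

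**Figure D2:**
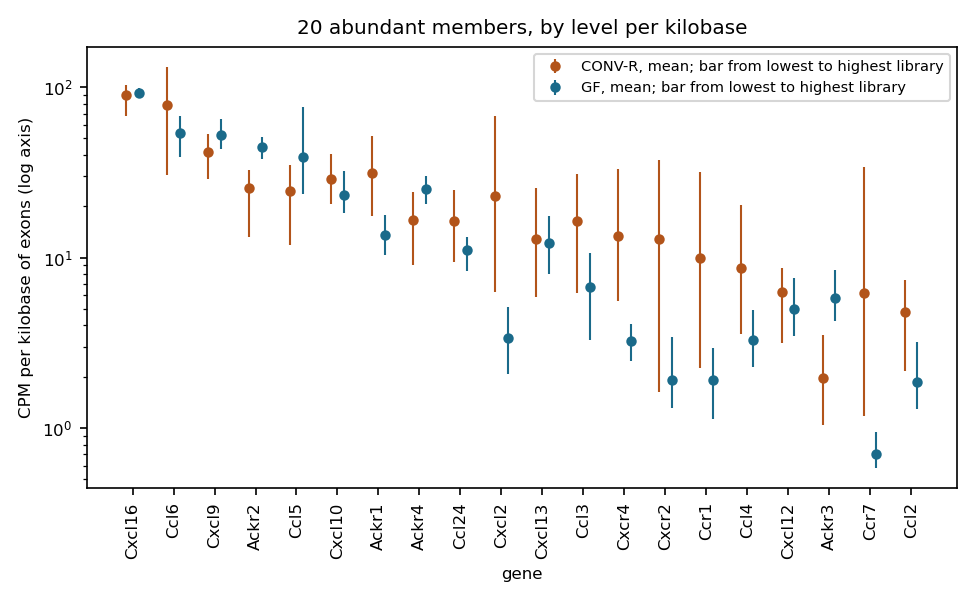
Mean CPM per kilobase of exons (log axis) of 20 abundant members tested, with bars from the lowest to the highest library of 7 CONV-R and 6 GF. Cxcl16 leads with means of 89.9 in CONV-R and 92.2 in GF, whereas the groups are apart at Ackr2 and Ackr3, higher in GF, and at Cxcl2, Cxcr4 and Ccr7, lower in GF.

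Among the CC ligands tested, 3 passed the test, all lower in GF, as were 12.7% of all genes. Ccl2, the main ligand of the monocyte receptor Ccr2 (chr11:82035571-82037453), held 1.76 to 6.01 CPM (median 3.29) in CONV-R and 1.05 to 2.60 CPM (median 1.34) in GF, and of the GF libraries only GF 11, at 2.60, reached into the CONV-R range. It fell with a log2 fold change of -1.34 ± 0.32 SE, adjusted p = 0.00993, and it was -0.98 without CONV-R 1, 6 and 7 (adjusted p = 0.0433). At code number 10 alone it did not pass (-0.81, adjusted p = 0.0807). The other gene of this group that could be tested, the eotaxin Ccl24, which Kupffer cells make, held 12.3 to 32.3 CPM (median 20.9) in CONV-R and 10.8 to 17.2 CPM (median 14.2) in GF and did not pass (-0.58 ± 0.21 SE, adjusted p = 0.0545).

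Ccl3 and Ccl4, neighbouring genes whose products draw monocytes and T cells through Ccr1 and other receptors, both fell. Ccl3 (chr11:83647844-83649355) held 4.78 to 23.6 CPM (median 9.14) in CONV-R and 2.52 to 8.13 CPM (median 5.36) in GF, with a log2 fold change of -1.25 ± 0.39 SE, adjusted p = 0.0336. Ccl4 (chr11:83662584-83664683) held 2.36 to 13.5 CPM (median 4.51) in CONV-R and 1.50 to 3.23 CPM (median 1.88) in GF, with -1.37 ± 0.38 SE, adjusted p = 0.0213. For both, CONV-R 6 was the highest library. CONV-R 4 lay within the GF range of both genes, and CONV-R 2 and 5 within that of Ccl3. Without CONV-R 1, 6 and 7 neither passed (Ccl3 at -0.43, adjusted p = 0.337, and Ccl4 at -0.69, adjusted p = 0.0908). CONV-R 6 and 7 also had the highest neutrophil and immediate early sums, and the part of these in the fall was not tested.
The other 3 ligands of the group did not pass. Ccl6, the second most abundant member per kilobase (79.1 in CONV-R, 53.6 in GF), held 43.8 to 189 CPM (median 115) in CONV-R and 56.0 to 96.9 CPM (median 74.3) in GF, and its highest CONV-R libraries were 6, 1 and 5, which also had the 3 highest Kupffer cell sums. The log2 fold change of Ccl6 was -0.56 ± 0.32 SE, adjusted p = 0.210. Ccl5, which T and NK cells make, held 6.30 to 18.6 CPM (median 14.3) in CONV-R and 12.5 to 40.8 CPM (median 18.0) in GF, with 0.65 ± 0.30 SE, adjusted p = 0.120, and its highest library was GF 8, which also had the highest T and NK sum of the GF group. Ccl9 stood at -0.46 ± 0.45 SE, adjusted p = 0.480, with CONV-R 1 at 21.6 CPM far above the rest, and took the other sign without that library (0.12).

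None of the 5 tested ligands of Ccr4, Ccr9 and Ccr10 passed the test. Ccl22, a dendritic cell product, spanned 0 to 5.27 CPM (median 2.09) in CONV-R and 0.446 to 1.10 CPM (median 0.703) in GF with a log2 fold change of -1.61 ± 0.63 SE, adjusted p = 0.0750. CONV-R 7 had 0 counts of it, which allows up to 0.233 CPM there by counting error alone. Without CONV-R 1, 6 and 7 Ccl22 passed (-1.47, adjusted p = 0.0288). Ccl17 stood at -0.90, Ccl27a at -0.42, Ccl25 at -0.21 and Ccl28 at 0.81, all with overlapping groups. Cx3cl1, the membrane-bound ligand of Cx3cr1, held 0.778 to 4.29 CPM (median 1.419) in CONV-R and 2.43 to 3.55 CPM (median 3.04) in GF and did not pass (0.74 ± 0.33 SE, adjusted p = 0.115), CONV-R 2 being its highest library. Xcl1, a T and NK cell ligand, stood at -0.63 with an adjusted p of 0.329.

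Of the 18 signalling receptors 14 were tested and 10 fell (71.4%, against 12.7% of all genes), while 0 rose. The median log2 fold change was -2.20 over the 14 receptors and -0.56 over the 23 ligands tested, against -0.01 over all genes.

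Cxcr2 and Ccr1, receptors of neutrophils and monocytes, were highest in CONV-R 7 and 6. Cxcr2, the neutrophil receptor for Cxcl1 and Cxcl2 (chr1:74153989-74161246), held 4.97 to 114 CPM (median 22.2) in CONV-R and 4.01 to 10.4 CPM (median 5.17) in GF. CONV-R 7 and 6 led at 114 and 66.0, and CONV-R 1, at 4.97, was the one CONV-R library inside the GF range. It fell with a log2 fold change of -2.72 ± 0.61 SE, adjusted p = 0.00734, and it was -1.91 (adjusted p = 0.00218) without CONV-R 1, 6 and 7.
Ccr1, a receptor of neutrophils and monocytes for Ccl3, Ccl5 and Ccl6 (chr9:123962124-123968692), had the same libraries in front, at 89.5 and 49.9, while CONV-R 1 and 4 lay within the GF range. Its libraries held 6.39 to 89.5 CPM (median 13.8) in CONV-R and 3.18 to 8.35 CPM (median 5.18) in GF, with a log2 fold change of -2.37 ± 0.61 SE, adjusted p = 0.0144, which came to -1.27 (adjusted p = 0.0125) without the 3 libraries. At code number 10 alone it did not pass (-0.87, adjusted p = 0.0743). The neutrophil and monocyte marker sum had the same order of leading libraries, 2776 CPM in CONV-R 7 and 1845 in CONV-R 6. Neither gene passed with any of the 4 marker sums tried as a covariate (neutrophil and monocyte, hepatocyte, Kupffer cell and immediate early).

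Ccr2, the receptor of inflammatory monocytes (chr9:124101950-124113557), held 11.2 to 48.4 CPM (median 15.6) in CONV-R and 5.77 to 11.6 CPM (median 7.75) in GF. CONV-R 1 led, at 48.4, and GF 8 alone of the GF group reached into the CONV-R range. Ccr2 fell (-1.34 ± 0.32 SE, adjusted p = 0.0109), and it was -0.75 (adjusted p = 0.0109) without CONV-R 1, 6 and 7. Cx3cr1, found on patrolling monocytes and some macrophages, held 5.53 to 10.7 CPM (median 7.55) in CONV-R and 2.52 to 6.01 CPM (median 4.81) in GF and fell (-0.73 ± 0.19 SE, adjusted p = 0.0157). It differed less between libraries than the receptors above, with CONV-R 1 at the top and GF 13 at the bottom. Without the 3 libraries it was -0.64 (adjusted p = 0.0465), and at code number 10 alone it was -0.77 and did not pass (adjusted p = 0.0566).

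Receptors of lymphocytes and dendritic cells were highest in CONV-R 1. Cxcr5, the B cell receptor for Cxcl13 (chr9:44511787-44561877), stood at 70.3 CPM in CONV-R 1 and at 1.71 to 4.18 in the other 6 CONV-R libraries. In GF it ran from 0.462 to 1.72 CPM (median 0.896), the highest of which, GF 8, lay just above CONV-R 7. With all libraries its log2 fold change was -3.71 ± 0.99 SE, adjusted p = 0.0169, and without CONV-R 1 it was -1.62 (adjusted p = 0.00346).
Ccr7, the receptor that brings lymphocytes and dendritic cells to lymph nodes (chr11:99144196-99155077), stood at 67.5 in CONV-R 1, at 2.34 to 4.44 in the other CONV-R libraries and from 1.16 to 1.88 CPM (median 1.30) in GF. All GF libraries lay below all CONV-R libraries. The log2 fold change was -3.14 ± 0.90 SE, adjusted p = 0.0230 with CONV-R 1 and -1.14 (adjusted p = 0.000978) without it. Ccr6, a B cell and T cell receptor (chr17:8236043-8257141), stood at 17.6 CPM in CONV-R 1 and at 0.406 to 1.22 in the others. In GF it ran from 0.177 to 0.524 CPM (median 0.219), so that GF 8 reached into the CONV-R range. That is only 4 to 17 counts a library in GF, against 6 to 347 in CONV-R, so Ccr6 is near the filter. Its log2 fold change was -3.58 ± 0.998 SE, adjusted p = 0.0206, or -1.53 (adjusted p = 0.0101) without CONV-R 1. Ccr7 and Ccr6 kept the direction without CONV-R 1, at a smaller size. Cxcr5 shares 110 exonic bases with Bcl9l on the opposite strand and is uncertain to that extent.

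Receptors of dendritic cells, T cells and eosinophils had the same library in front. Ccr9, which plasmacytoid dendritic cells and gut-homing T cells carry (chr9:123678439-123784330), stood at 23.6 CPM in CONV-R 1 and at 0.523 to 1.22 in the other CONV-R libraries. In GF it ran from 0.297 to 0.924 CPM (median 0.437), which is 9 to 30 counts a library, against 4 to 465 in CONV-R. The log2 fold change of -3.08 ± 0.94 SE, adjusted p = 0.0308 became -1.03 (adjusted p = 0.0219) without CONV-R 1. Ccr3, the eotaxin receptor (chr9:124021972-124031689), stood at 24.1 in CONV-R 1 and at 1.44 to 5.37 in the others. Its GF libraries, from 0.353 to 1.33 CPM (median 1.27), all lay below the CONV-R libraries, with a log2 fold change of -2.43 ± 0.68 SE, adjusted p = 0.0211, or -1.35 (adjusted p = 0.0165) without CONV-R 1. Ccr9 overlaps AC165425.1 by 1932 exonic bases on the opposite strand, so its counts are uncertain.
Leukocyte markers stood apart in the same library. In CONV-R 1 the B cell marker sum was 2100.03 CPM, against at most 110.5 in any other library, and the sums of dendritic and of T and NK cells were also the highest of all. The part of these cells in the values with CONV-R 1 was not tested, and the values without it are those given above.

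Cxcr4, the Cxcl12 receptor of most leukocytes and of some endothelium (chr1:128588199-128592293), held 10.0 to 60.0 CPM (median 14.9) in CONV-R and 4.46 to 7.32 CPM (median 5.59) in GF. No GF library reached the lowest CONV-R library, although CONV-R 1 and 7, at 60.0 and 37.0, stood above the rest. It fell with a log2 fold change of -2.04 ± 0.40 SE, adjusted p = 0.00398, and it was -1.11 (adjusted p = 0.000803) without CONV-R 1, 6 and 7. Receptors of T cells and dendritic cells did not all pass the test. Cxcr6 stood at -1.13 (adjusted p = 0.164), Xcr1 at -1.19 (adjusted p = 0.0514) and Cxcr3 at -1.05 (adjusted p = 0.0962). In each of these 3 CONV-R 1 was the highest library, and without it Cxcr6 was -0.23, Cxcr3 was -0.38 and Xcr1 was -0.73 (adjusted p = 0.0897).

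**Figure D3:**
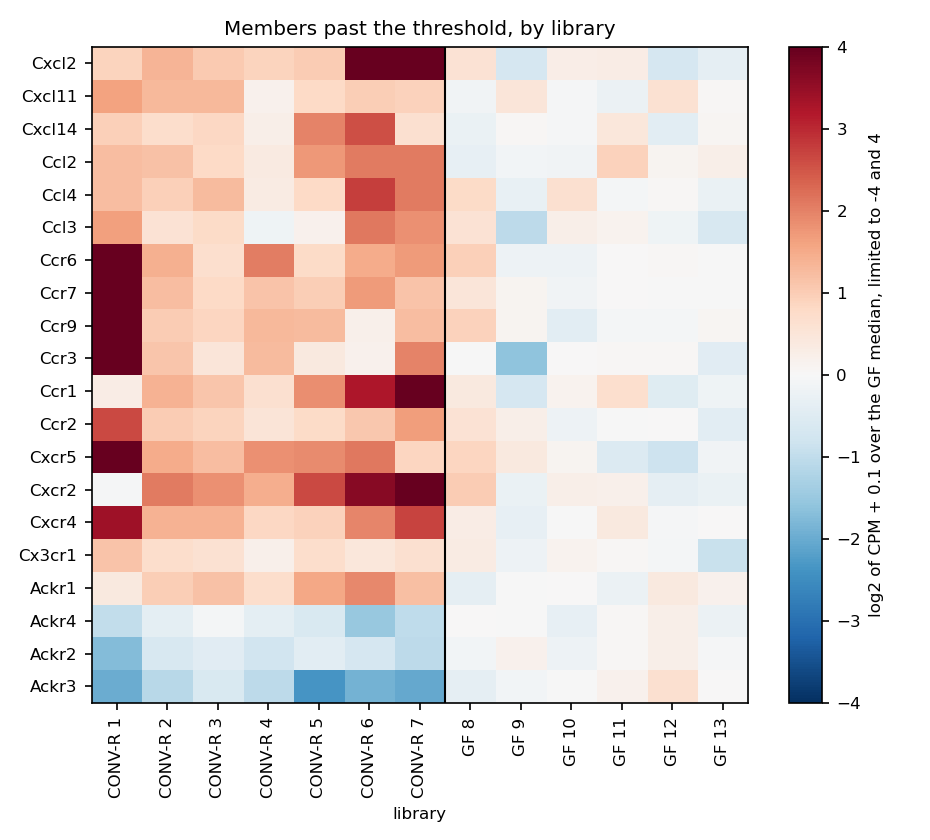
Log2 of CPM plus 0.1 over the GF median, limited to -4 and 4, for the 20 members past the threshold (rows) in each library (columns, CONV-R left of the line). CONV-R 1 is darkest for Ccr6, Ccr7, Ccr9, Ccr3 and Cxcr5, CONV-R 6 and 7 for Cxcl2, Cxcr2 and Ccr1, while Ackr2 and Ackr3 are below the GF median in all 7 CONV-R libraries.

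All 4 atypical receptors passed the test, as did 24.1% of all genes. Of the 4, 3 were higher and 1 lower in GF, against 11.4% and 12.7% of all genes. The call of Ackr4 held in only 11 of 29 alternative settings. Ackr3, which takes up Cxcl12 and Cxcl11 (chr1:90203980-90216751), held 3.18 to 10.8 CPM (median 4.44) in CONV-R and 12.9 to 26.1 CPM (median 16.7) in GF. Every GF library lay above every CONV-R library, which was so for 2 of the 41 members and for 5.94% of all genes. It rose with a log2 fold change of 1.54 ± 0.27 SE, adjusted p = 0.00217, and within code numbers 10 and 9 it was 1.21 (adjusted p = 0.0162) and 2.22 (adjusted p = 8.76e-05). Without CONV-R 1, 6 and 7 it was 1.24 (adjusted p = 0.0148).

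Ackr2, which takes up and degrades inflammatory CC chemokines and is the fourth most abundant member per kilobase (25.7 in CONV-R, 44.5 in GF), lies at chr9:121898355-121911074. It held 39.9 to 98.7 CPM (median 83.1) in CONV-R and 115 to 154 CPM (median 132) in GF, again with no overlap, and CONV-R 1 was the lowest library. It rose with a log2 fold change of 0.79 ± 0.17 SE, adjusted p = 0.00586, and it was 0.59 (adjusted p = 0.00199) without the 3 libraries. Ackr4, which takes up Ccl19, Ccl21 and Ccl25 (chr9:104084157-104126933), held 26.9 to 72.1 CPM (median 49.9) in CONV-R and 61.0 to 89.6 CPM (median 76.9) in GF, with CONV-R 3 reaching into the GF range. Its rise of 0.61 ± 0.19 SE, adjusted p = 0.0315 did not hold without CONV-R 1 (0.54, adjusted p = 0.0661) or without all 3 (0.32, adjusted p = 0.0822). It shares 479 exonic bases with Acad11 on the opposite strand, whose own log2 fold change was -0.24, so its counts are uncertain. The CONV-R libraries with the lowest sinusoidal sums, 1 and 7, were also the lowest for Ackr2. As given above, 8 of 15 sinusoidal and 4 of 9 cholangiocyte markers were higher in GF, and the part of this in the rises was not tested.

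Ackr1, the venule and red cell receptor that carries chemokines across the vessel wall (chr1:173331886-173333750), went the other way. It held 23.3 to 68.2 CPM (median 40.1) in CONV-R and 13.7 to 23.5 CPM (median 17.8) in GF, so that only CONV-R 1, at 23.3, overlapped the top GF library, GF 12. It fell with a log2 fold change of -1.19 ± 0.22 SE, adjusted p = 0.00255, and it was -1.12 (adjusted p = 0.00151) without CONV-R 1, 6 and 7. CONV-R 6 and 5 were the highest, and CONV-R 1, which led many of the leukocyte receptors, was the lowest of its group. Ackr1 overlaps Cadm3 by 361 exonic bases on the same strand, and Cadm3 moved the opposite way, at 0.46 ± 0.12 SE, adjusted p = 0.0164.

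**Figure D4:**
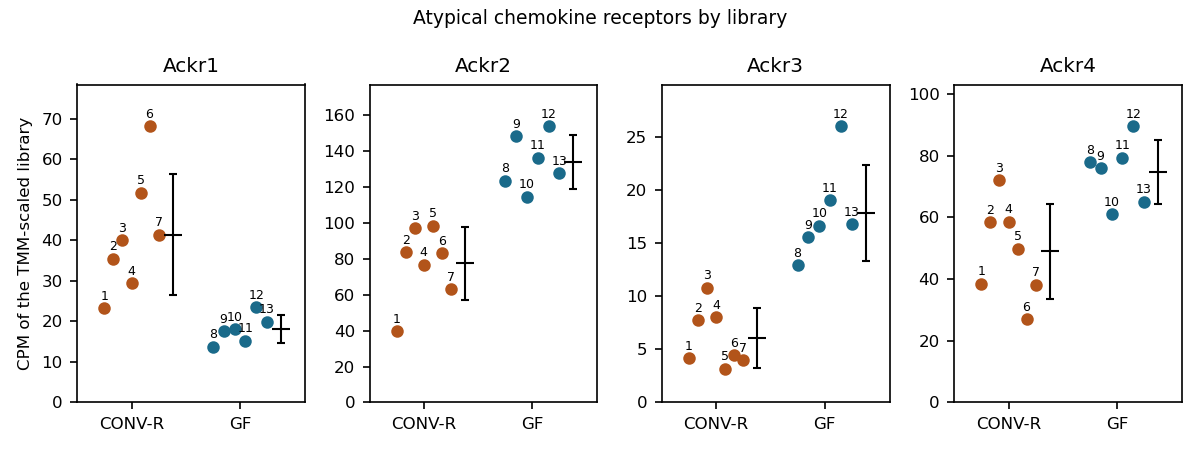
CPM of the 4 atypical receptors in each library (numbered points), with the mean and SD of 7 CONV-R and 6 GF libraries at the right of each group. Ackr2 and Ackr3 have no overlap between the groups, Ackr4 overlaps at CONV-R 3, and Ackr1 is lower in GF with CONV-R 1 at the GF upper end.

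Every GF library lay below every CONV-R library for 4 of the 41 members, Cxcl2, Ccr7, Ccr3 and Cxcr4, while this was so for 4.32% of all genes. Among the 17 members that fell, CONV-R 1 was the highest CONV-R library for 9, CONV-R 6 for 6 and CONV-R 7 for 2. Without these 3 libraries, 17 of 42 members tested passed, while 19.7% of all genes did, and of the 17, 16 were among the 20 above. Ccl3, Ccl4, Cxcl11 and Ackr4 were lost and Ccl22 was gained, and the median over the 41 members was -0.43. Set against code number 10 alone, GF differed in 14 members (13.9% of all genes), with Ackr4, Ccl2, Ccl3, Ccl4, Ccr1, Cx3cr1 and Cxcl14 lost and Ccl22 gained. Against code number 9 alone, 25 of 43 members tested passed (34.0% of all genes). There Ccr9 and Cxcl11 were lost, and Ccl24, Ccl6, Cxcl1 and Cx3cl1 were gained. Of these ligands Cx3cl1 rose (1.21, adjusted p = 0.00960). Cxcr1 and Ccl7, untested with all libraries, also passed in that fit. With single libraries left out, Ccr7 and Ccl4 lost the call without GF 9 and Ccr9 without each of GF 9 to 13. Ccl3 lost it without each of CONV-R 1, 6 and 7 and GF 9, 11, 12 and 13, and Ackr4 without each of CONV-R 1, 5 and 7 and GF 8, 9, 11 and 12. The other 15 called members kept the call in all 13 of these fits.

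**Figure D5:**
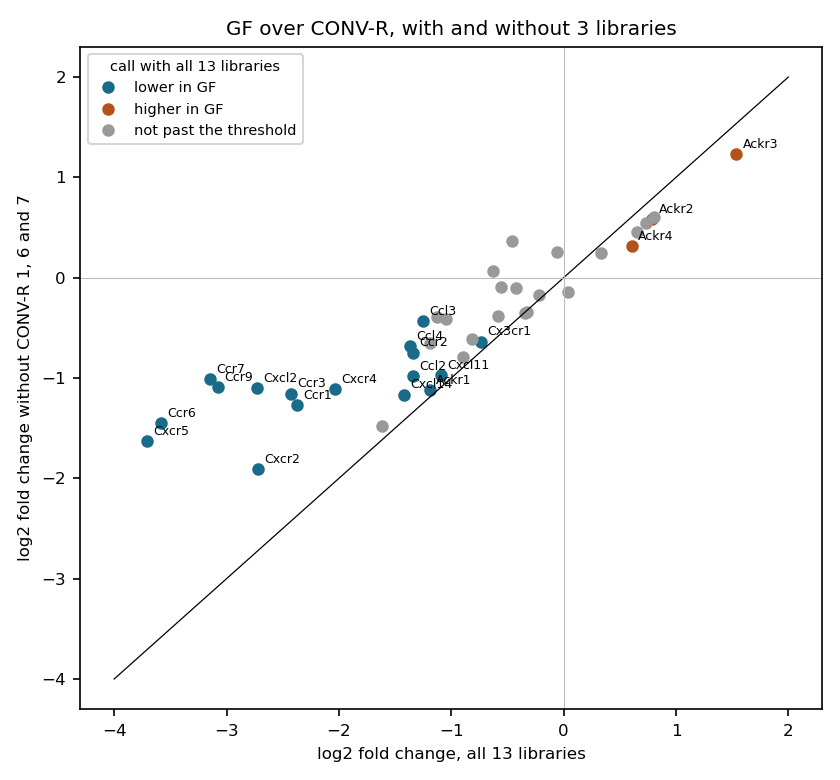
Log2 fold change of 40 members tested with all 13 libraries (horizontal) and without CONV-R 1, 6 and 7 (vertical), coloured by the call with all libraries, and with a line of equality. Ccr6, Cxcr5, Ccr7, Ccr9 and Cxcl2 lie well above the line at smaller falls, while Ackr1, Cx3cr1 and Cxcl11 lie near it.

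Of the members, 14 lie on chromosome 11, 13 on chromosome 9 and 11 on chromosome 5, only some of them in clusters. On chromosome 9, the members Ccr9, Cxcr6, Xcr1, Ccr1, Ccr3 and Ccr2 lie in this order. Ccr9, Ccr1, Ccr3 and Ccr2 fell, as did 12.7% of all genes. Cxcr6 and Xcr1, between Ccr9 and Ccr1, did not pass (adjusted p = 0.164 and 0.0514). On chromosome 5, Cxcl9, Cxcl10 and Cxcl11 are neighbours and only Cxcl11 fell.

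Other genes of the pathway were followed in lists, 117 tested in all, of which 45 passed (38.5%, against 24.1% of all genes). The lists were chosen with earlier results of these data known, so their shares are descriptions and not tests of the pathway. Of 9 tested receptors, ligands and cofactors that carry other names, 2 rose (22.2%, against 11.4% of all genes) and 1 fell (11.1%, against 12.7%). Gpr182, an atypical chemokine receptor of sinusoidal and lymphatic endothelium, held 863 to 1417 CPM (median 1255) in CONV-R and 1425 to 1815 CPM (median 1572) in GF with no overlap and rose (0.45 ± 0.12 SE, adjusted p = 0.0149). It is itself one of the 8 sinusoidal markers that were higher. Ccrl2, which presents chemerin, rose (0.31 ± 0.096 SE, adjusted p = 0.0305), and Rarres2, which encodes chemerin, held 4.36 to 28.5 CPM (median 10.6) in CONV-R and 2.93 to 5.79 CPM (median 4.39) in GF and fell (-1.74 ± 0.42 SE, adjusted p = 0.0106).

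Of 33 genes of chemokine receptor signalling, 6 (18.2%) were higher and 13 (39.4%) lower in GF, against 11.4% and 12.7% of all genes, with a median log2 fold change of -0.19. The 4 with the smallest p all rose. Arrb1, an arrestin that takes receptors off the surface, held 481 to 732 CPM (median 640.3) in CONV-R and 901 to 1033 CPM (median 1015) in GF (0.69 ± 0.099 SE, adjusted p = 0.000576). Rgs16, which shortens G protein signals, held 0 to 0.568 CPM (median 0.338) in CONV-R and 0.839 to 1.84 CPM (median 1.61) in GF (2.14 ± 0.40 SE, adjusted p = 0.00300). At these levels Rgs16 passed the low-count filter only through the GF libraries, where it was higher. Its rise, counted among the 6, is therefore given for description alone. The inhibitory G protein subunits Gnao1 (0.85 ± 0.17 SE, adjusted p = 0.00420) and Gnai1 (1.08 ± 0.22 SE, adjusted p = 0.00505) rose as well. Rac2 (-1.40 ± 0.35 SE, adjusted p = 0.0134) and Dock2 (-1.05 ± 0.35 SE, adjusted p = 0.0420), signalling proteins known mainly from leukocytes, fell; these 2 were chosen after their values were seen.

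Of 20 genes for NF-kB subunits, its inhibitors and its inflammatory targets, 10 fell (50%, against 12.7% of all genes) and 1 rose (5%, against 11.4%), with a median of -0.56. Relb, a subunit of NF-kB, held 30.3 to 40.5 CPM (median 35.1) in CONV-R and 16.0 to 22.6 CPM (median 18.8) in GF, with no overlap (-0.88 ± 0.093 SE, adjusted p = 6.36e-05). Tnf, an inflammatory cytokine of myeloid cells, at 3.37 to 8.56 CPM (median 4.61) in CONV-R and 0.928 to 1.84 CPM (median 1.49) in GF, did not overlap either (-1.86 ± 0.24 SE, adjusted p = 0.000253). The inhibitors Nfkbie (-0.75 ± 0.12 SE, adjusted p = 0.00133) and Tnfaip3 (-0.71 ± 0.12 SE, adjusted p = 0.00149) fell too. Vcam1, the endothelial adhesion molecule, was the one that rose, with 116.5 to 185 CPM (median 152) in CONV-R and 142 to 280.1 CPM (median 221) in GF and overlapping groups (0.52 ± 0.15 SE, adjusted p = 0.0212). As given above, neutrophil and monocyte markers and immediate early genes were also lower in GF, and their part in these values was not tested.

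Of 25 interferon-induced and interferon signalling genes, receptor chains included, 2 rose (8%) and 4 fell (16%), with a median of -0.04. The share called, 24%, is that of all genes (24.1%), and the genes named here are given for their values alone. Cd274, which encodes PD-L1, held 44.3 to 77.0 CPM (median 54.1) in CONV-R and 23.7 to 37.3 CPM (median 27.7) in GF and fell without overlap (-0.97 ± 0.14 SE, adjusted p = 0.000535). The antiviral gene Mx1 (-1.23 ± 0.29 SE, adjusted p = 0.0102), the receptor chain Ifngr2 (-0.30 ± 0.072 SE, adjusted p = 0.0111) and the inhibitor Socs1 (-1.02 ± 0.25 SE, adjusted p = 0.0126) fell, while the antiviral genes Rsad2 (0.37 ± 0.11 SE, adjusted p = 0.0310) and Ifit1 (0.36 ± 0.12 SE, adjusted p = 0.0350) rose.

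Of 10 genes of chemokine cleavage and shedding 2 rose (20%, against 11.4% of all genes) and 2 fell (20%, against 12.7%). The peptidase Dpp4, which trims the ends of several chemokines, held 704 to 1246 CPM (median 1014) in CONV-R and 1307 to 1496 CPM (median 1399.8) in GF and rose without overlap (0.43 ± 0.12 SE, adjusted p = 0.0185), and the sheddase Adam10, which frees Cxcl16 and Cx3cl1, rose too (0.28 ± 0.087 SE, adjusted p = 0.0319). The neutrophil gelatinase Mmp9 held 23.1 to 177 CPM (median 31.3) in CONV-R and 6.76 to 13.8 CPM (median 10.0) in GF and fell (-2.45 ± 0.49 SE, adjusted p = 0.00425), and the peptidase Anpep fell (-1.10 ± 0.29 SE, adjusted p = 0.0154). Mmp9 is itself one of the 11 neutrophil and monocyte markers that were lower. Of 20 genes for the heparan sulfate chains that hold chemokines on cells, only Glce, an enzyme that shapes these chains, rose (0.73 ± 0.13 SE, adjusted p = 0.00200), and only the core protein Gpc1 fell (-0.43 ± 0.10 SE, adjusted p = 0.00969). The share called in this list, 10%, lay below the 24.1% of all genes.

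The 20 members not tested were scarce in all libraries. Cxcr1, a neutrophil receptor (chr1:74191785-74194631), held 4 to 49 counts in CONV-R and 1 or 2 in GF, and when all genes with a count were tested it was at -4.27 (adjusted p = 0.00611). Ccl8, a monocyte ligand, held 2 to 22 and 1 to 6 counts and was at -1.99 (adjusted p = 0.0360) in that same test. Ccl7, at 6 to 23 counts in CONV-R and 1 to 18 in GF, was at -1.45 (adjusted p = 0.119). Of the Ccr7 ligands, Ccl19 held 1 to 12 and 2 to 10 counts, and Ccl21a, Ccl21b and Ccl21c were at 0 in every library, as was Ccl27b. A count of 0 allows up to 0.392 CPM in the shallowest library and 0.0866 in the deepest, by counting error only. These 4 have near-identical copies among which reads can be lost, so their zeros are uncertain. Ccl20, Ccl11, Ccl12, Ccl1, Ccl26, Cxcl3, Cxcl5, Cxcl15, Cxcl17, Ccr4, Ccr8 and Ccr10 complete the untested genes.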

How the data were processed

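RNA of liver endothelial cells was read in 13 libraries prepared with a stranded poly(A) kit, per the labels' protocols. The authors deposited raw counts, 1 row a gene symbol and 1 column a library. The submitters' processing notes name FastQC 0.11.9, STAR 2.7.5a, featureCounts 2.0.1 and DESeq2 1.42.1 with the build mm10. The annotation, strand setting and treatment of multiply mapped reads are not stated there, so overlapping genes and near-identical copies may share or lose reads. The table held 0 columns outside the series and 0 duplicated symbols.

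From these counts, edgeR 4.0.16 in R 4.3.3 gave a robust quasi-likelihood test of GF against CONV-R after TMM scaling and a low-count filter (filterByExpr, with a minimum count of 10 and a total of 15), with Benjamini-Hochberg adjustment over 13915 genes and a threshold of 0.05. A standard error is the absolute log2 fold change over the square root of F. CPM refer to the TMM-scaled library, marker sums to the unscaled total. Across genes the biological coefficient of variation came to 0.264, and all pairs of libraries within a group differed by more than counting noise (chi-square per degree of freedom at least 13.4). Lengths and positions are from GENCODE M21 (60 of 61 members found), on GRCm38. Alternatives were DESeq2 1.42.0, limma-voom (limma 3.58.1), other scalings and filters, CONV-R libraries left out and marker sums as covariates; leaving out CONV-R 1, 6 and 7 together was chosen after seeing the data. 1 member is counted but not reported on its own here. The test was checked on simulated data. The members and the gene lists were chosen with earlier results of these data known. Members past the threshold and the most abundant ones are described in full, and other pathway genes by up to 4 per list with the smallest p, plus those behind counts of 5 or fewer.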

Additional observations from a re-analysis of the deposited data

Results flagged for a closer look

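In 82 groups (41 members, each in CONV-R and in GF, on the scale log2 of CPM plus 0.1), 9 libraries lay apart from the others of their group by the gap between neighbouring values, a measure by which chance marks about 1 in 20 groups. Of these, 6 were CONV-R 1 as the highest of its group: Ccr7 at 67.5 CPM, Cxcr5 at 70.3, Ccr6 at 17.6, Ccr9 at 23.6, Cxcr3 at 13.2 and the ligand Ccl9 at 21.6. In GF, library 8 lay apart as the highest for Ccr6, at 0.524 CPM, and library 9 as the lowest for Ccl27a, at 0.883, and for Ccr3, at 0.353.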

How the results depend on the processing

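No paired analysis was possible because the labels give the groups no shared replicate numbers. DESeq2, limma-voom, other scalings, no filter and a stricter filter left 15 to 25 members past the threshold, 12 to 22 of them lower, against 20 and 17. Between 28 (stricter filter) and 57 members (no filter) were tested. Of all genes, 15.5% (no filter) to 29.5% (DESeq2) passed in these fits, and 8.03% to 19.9% were lower. Library totals, which put the median of all genes at -0.11 instead of -0.01, gave 21 lower and 2 higher (19.9% and 6.98% of all genes). Leaving out 1 library gave 15 (without GF 9) to 24 members (without CONV-R 2), while 15.7% (without GF 9) to 27.0% (without CONV-R 3) of all genes passed. Of the members, 13 to 20 were lower (8.53% to 14.2% of all genes) and 2 to 5 higher (7.15% to 12.8%). Of the pathway genes, 33 to 50 of 117 or 118 tested passed. Without CONV-R 2 the 5 higher members include Ccl28 and Cx3cl1. Of the 20 members called, 15 kept the call in all 13 such fits; Ccl3, Ccl4, Ccr7, Ccr9 and Ackr4 did not. Of the 20, 0 held under all 29 alternatives.

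At a threshold of 0.01, 6 members passed (8.68% of all genes), 4 of them lower (4.16% of all genes), and 19 of 117 pathway genes instead of 45. With CONV-R code number 10 alone 25 pathway genes passed (13.9% of all genes). With the neutrophil and monocyte sum as a covariate 0 members passed in either direction and 15 pathway genes (4.13% of all genes); with the hepatocyte sum 0 and 7 (3.68%); with the Kupffer cell sum 4 members, 2 of them lower, and 22 pathway genes (9.54%, near the 4 of 41 members); with the immediate early sum 8 members, 8 lower and 0 higher, and 19 pathway genes (11.2%). The neutrophil and monocyte, hepatocyte and immediate early sums stood mostly or wholly higher in CONV-R. Kupffer cell sums overlapped, at 3163 to 4953 CPM in GF and 3423 to 9332 in CONV-R. No sum was tested between the groups, and the cause of the changes was not tested.

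Among the members reported on their own, values of 12 changed sign in at least 1 alternative, among them Ccr7 and Ccr9 of the 20 called. With the hepatocyte sum the log2 fold changes were 0.60 for Xcl1, -0.25 for Cxcl16, 1.34 for Ccl9, 0.44 for Ccl6, 0.30 for Ccr7, 0.22 for Ccl27a, 0.26 for Cxcl13, 0.22 for Ccl24, 0.0034 for Ccl25, 0.34 for Ccr9, 0.40 for Cxcr6 and 0.20 for Cxcr3. With the Kupffer cell sum they were 0.23 for Xcl1, -0.071 for Cxcl16, 0.36 for Ccl9, 0.29 for Ccl6 and 0.55 for Cxcl13, and with the neutrophil sum -0.14 for Cxcl16, 0.27 for Ccl6, 0.58 for Cxcl13 and 0.019 for Ccl25. The immediate early sum gave -0.078 for Cxcl16 and 0.20 for Cxcl13, limma-voom gave 0.069 for Xcl1, -0.036 for Cxcl16, 0.18 for Ccl9 and 0.33 for Cxcl13, and library totals gave -0.058 for Cxcl16. Without CONV-R 1, 6 and 7 the values were 0.066 for Xcl1, -0.14 for Cxcl16, 0.36 for Ccl9 and 0.25 for Cxcl13. Cxcl16 was at -0.012 and Cxcl13 at 0.39 with code number 10 alone, at -0.049 and 0.16 without CONV-R 6 and 7, and Cxcl16 at -0.076 and Ccl9 at 0.23 without CONV-R 1 and 7. With 1 library left out, Cxcl16 ran from -0.036 (without CONV-R 1) to 0.069, Ccl9 from -0.69 (without GF 11) to 0.12 (without CONV-R 1) and Cxcl13 from -0.20 (without GF 10) to 0.18 (without CONV-R 6). Precision is limited for members near the filter, such as Cxcl11, Ccl17, Ccr6 and Ccr9, and by CONV-R 6, the shallowest library. The calls of Ccr3, Ccr6, Ccr7, Ccr9, Cxcl11 and Cxcl14 were lost under the stricter filter, which did not keep these genes.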
